A study of Mus musculus and Mus spretus with 18 samples.

Results

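A set of 77 genes, of 12346 on the deposited table, stood at about the same level in the newborn and the 14-day-old mouse brain. In both species examined their mean level in the young adult was higher than at day 14. They were chosen by the group means of the log2 values: in each species the day 56 mean lay at least 0.3 above the day 14 mean, and the day 14 mean lay within 0.3 of the day 0 mean. The rule did not compare day 56 with day 0, so a gene that dipped at day 14 could enter. On this scale 0.3 is a small step, so the set holds modest late rises along with larger ones. All age changes of these genes entered the rule, so they are given here as a description, and calls made on them support nothing.

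The brains came from male mice of 2 wild-derived inbred strains, WSB/EiJ for Mus musculus (musculus from here on) and SPRET/EiJ for Mus spretus (spretus). Each species was sampled as neonates on the first postnatal day (day 0), as pups at day 14 and as adults at day 56, with 3 arrays in each of the 6 groups. The whole brain without the olfactory bulb was used, and each of the 18 samples was hybridised to its own Affymetrix mouse expression array. No treatment or engineered allele is named for any group. A species is represented by 1 strain, so differences between species and between strains cannot be told apart. The labels call each sample an individual, and the p-values measure the spread between these individuals.

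In the mouse, the first postnatal weeks bring the end of most neurogenesis outside a few niches, the growth of axons and dendrites, the formation of synapses and the onset of myelination. The time after the eyes open, through weaning and puberty, is known for the refinement and pruning of synapses, the maturation of inhibitory circuits, continued myelination and the adult pattern of hormones. A gene whose mean changed little over the first interval and rose over the second thus shows its net rise in the later of these periods. The course between the sampled ages was not seen. In whole-brain RNA, more cells of a type and more RNA per cell cannot be told apart.

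The files give Ensembl gene IDs and do not pair them with symbols, and the reference tables used here hold 0 Ensembl IDs. No gene name, chromosome, promoter or protein is therefore given for any of the 77 genes, and the cell type markers of the tissue could not be looked up. The genes are described as a set, with a pair of IDs per direction as examples.

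In the set as a whole, every day 56 array stood above every younger array. When each gene was set against its own mean over the 18 arrays, the median gene of the 77 lay in musculus at -0.17 ± 0.02 in neonates, at -0.16 ± 0.03 in pups and at 0.29 ± 0.03 in adults (log2, SD over 3 arrays). The spretus arrays lay at -0.17 ± 0.04, -0.11 ± 0.05 and 0.34 ± 0.02 at the same ages. The lowest day 56 array, musculus replicate 2 at 0.26, was above the highest array of the younger ages, spretus day 14 replicate 1 at -0.05. The day 0 and day 14 arrays overlapped in both species. This separation was fixed by the choice of the genes.

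**Figure D1:**
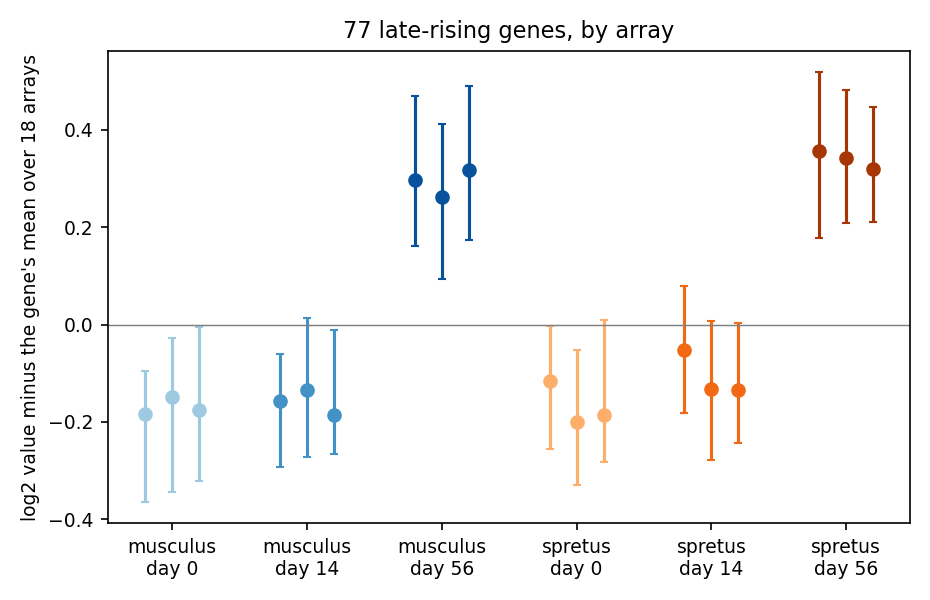
The median log2 value of the 77 late-rising genes on each array, after subtracting each gene's mean over the 18 arrays (vertical axis), for the 3 arrays of each species and age (horizontal axis). Points are medians over genes and bars run from the lower to the upper quartile of genes; the 6 day 56 arrays sit between 0.26 and 0.36 and the other 12 arrays between -0.20 and -0.05.

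Most of the late rises were small. In musculus the median gene stood 0.41 (log2) higher at day 56 than at day 14, a 1.33-fold change, and the rises ran from 0.30 to 1.14. In spretus the median was 0.44, a 1.36-fold change, and the range was 0.30 to 1.16. Over all 12346 genes the median change of this step was 0.02 in musculus and -0.01 in spretus. Averaged over the species, 28 of the 77 genes had a difference under 0.4, 25 of 0.4 to 0.5, and 24 of 0.5 or more. A rise of at least 0.5 in each species was reached by 7 genes.

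Before day 14 the genes leaned slightly upwards. Within the limit set by the rule, the step from day 0 to day 14 was positive for 44 of the 77 genes in musculus and for 50 in spretus. Its median was 0.05 in musculus and 0.10 in spretus, against 0.00 and 0.03 over all genes. The middle part of the set, between the lower and upper quartile, covered -0.08 to 0.18 in the musculus brain and -0.07 to 0.20 in that of spretus.

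The arrays of single genes were less cleanly parted than the set. In musculus every day 56 array lay above every day 14 array for 57 of the 77 genes, and 14.2% of all genes on the table showed the same order. In spretus this held for 58, against 14.1% of all genes. Both species showed it for 44 of the 77, against 5.26% of all genes, and 6 of the 77 showed it in neither. A linear model over the whole table (limma, adjusted p under 0.05) called 39 of the 77 genes higher at day 56 than at day 14 in musculus, where it called 5.08% of all genes, and 33 in spretus, where it called 3.98%. It called 23 of the 77 in both species, against 1.64% of all genes, and 28 in neither. Because the rule used these contrasts, the shares describe how far the chosen rises exceed the spread between arrays and support nothing further.

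ENSMUSG00000039728 had the largest mean rise, 1.01 on the log2 scale or 2.01-fold. Its musculus arrays read 5.84, 3.93 and 4.94 in neonates, 5.31, 5.49 and 4.21 in pups, and 6.11, 6.15 and 6.16 in adults. Its spretus arrays read 4.68, 5.19 and 5.32 in neonates, 5.76, 5.14 and 4.77 in pups, and 6.05, 6.11 and 6.15 in adults. All 6 day 56 arrays lay above all younger arrays, and they lay within a much narrower band. In musculus the SD was 0.96 in neonates, 0.69 in pups and 0.03 in adults, and in spretus it was 0.34, 0.50 and 0.05. The authors had masked 0 probes of this gene.

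ENSMUSG00000020884 came next, with a mean rise of 0.81 or 1.75-fold. Its musculus arrays read 4.51, 3.76 and 4.37 in neonates, 4.22, 3.96 and 3.90 in pups, and 5.39, 5.01 and 5.05 in adults. Its spretus arrays read 4.50, 4.14 and 4.14 in neonates, 4.46, 4.60 and 4.58 in pups, and 4.97, 5.04 and 5.11 in adults. The day 56 arrays were again the highest in each species. The rise was 1.12 in musculus and 0.50 in spretus, and the species stood close together at day 56, at 5.15 ± 0.21 and 5.04 ± 0.07 (SD, n = 3). Its younger levels lay under 4.76, which bounds the dimmest 25% of the table, so the size of its rise may be understated. The gene was also picked for a large rise, which may overstate it.

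**Figure D2:**
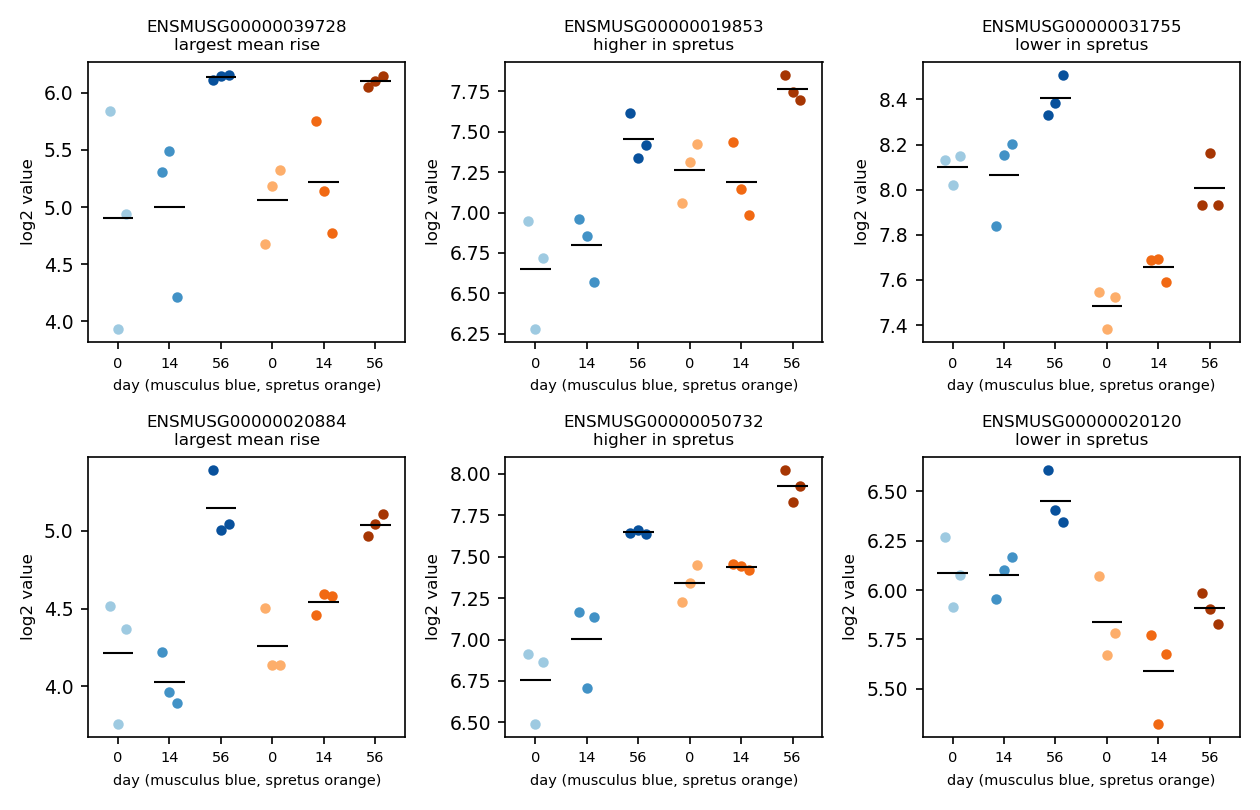
Log2 value of 6 of the late-rising genes (vertical axes) on each array by day (horizontal axes), with musculus in blue, spretus in orange and the mean of each group as a bar. In the left column the day 56 arrays lie above all younger arrays of their species; the middle column holds genes higher in spretus and the right column genes lower in spretus, on average over the 3 ages.

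The largest rises were found mostly among genes of below-median level. Of the 20 genes with the largest mean rise, all at 0.51 or more, 14 had a mean level below 6.56, the median of all genes, and the brightest had 8.45. In the whole set 43 of the 77 genes lay below that median. By level, 8 genes (10.4% of the set) fell in the dimmest 25% of the table, 56 in the middle 50% and 13 (16.9%) in the brightest 25%. The median rise was 0.46 in the dim genes, 0.45 in the middle and 0.40 in the bright ones. The typical spread within a group went the same way, with a median SD of 0.20, 0.16 and 0.08.

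The brightest and the dimmest gene differed before day 14 in musculus. The brightest of the 77 genes read 10.89 ± 0.05 in musculus neonates, 10.66 ± 0.08 in pups and 11.04 ± 0.09 in adults (SD, n = 3). In spretus it stood at 10.88 ± 0.05, 10.64 ± 0.06 and 11.14 ± 0.08. For this gene the day 14 level was the lowest of the 3 ages in both species, by less than the rule's limit. The dimmest gene stood at 3.09 ± 0.07, 3.11 ± 0.04 and 3.43 ± 0.09 in musculus and at 3.49 ± 0.12, 3.25 ± 0.20 and 3.97 ± 0.31 in spretus. Such levels lie near the floor of the table, whose lowest value was 2.89.

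The rises of the 2 species, both cut at 0.3 by the rule, were set side by side for each gene. The rise was larger in musculus for 37 genes and larger in spretus for 40, with a median difference of 0.01 (spretus minus musculus). The size of the difference was under 0.1 for 39 genes and over 0.3 for 9. Across the 77 genes Pearson's r between the rises was 0.21 and Spearman's rho 0.16, over points that were all cut at 0.3 on both axes. In the limma contrast of the spretus rise minus the musculus rise, 0 of the 77 genes were called, where 0.0405% of all genes were, and 6 had an unadjusted p under 0.05; both rises entered the rule, so nothing is read from these counts. The 5 genes with the largest differences, from 0.39 to 0.74 in size, included 4 from the dimmest 25% of the table, and the larger rise was in musculus for 2 of the 5 and in spretus for 3.

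**Figure D3:**
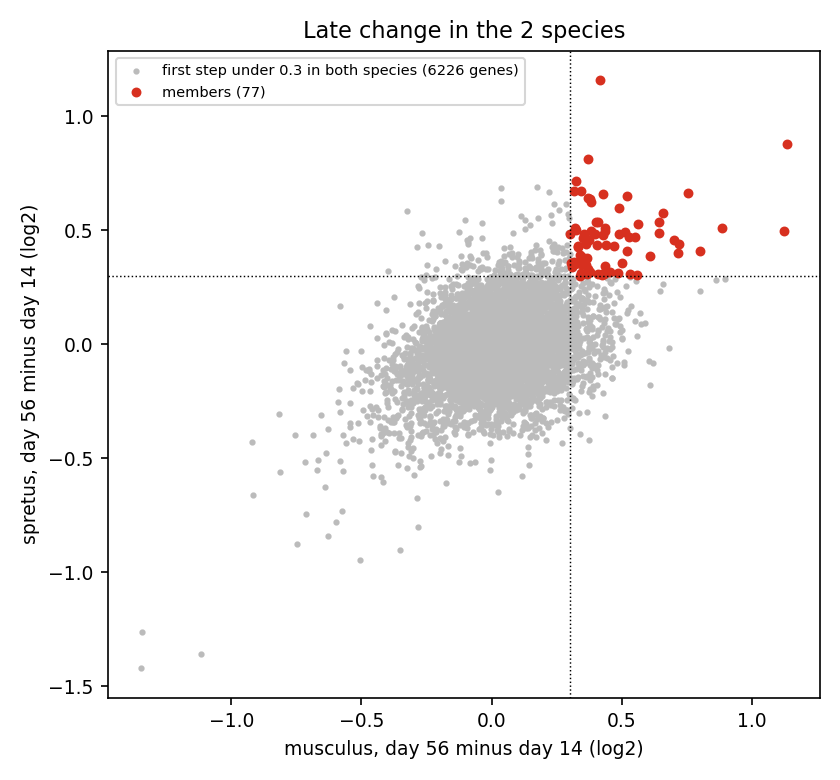
Day 56 minus day 14 in musculus (horizontal axis, log2) and in spretus (vertical axis, log2) for the 6226 genes whose step from day 0 to day 14 was under 0.3 in size in both species. Red points are the 77 late-rising genes, grey points the others, and the dotted lines mark the rule's limit of 0.3; most red points lie close to the limit, and the highest single rises were 1.14 in musculus and 1.16 in spretus.

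Because no array is shared between the species, a late riser picked in 1 species can be read in the other on arrays that played no part in its choice. Applied to musculus by itself the rule took 482 genes (3.90% of the table), and applied to spretus by itself 344 (2.79%). The 77 shared genes are 16.0% of the musculus list and 22.4% of the spretus list. The 482 genes picked in musculus had a median late change of 0.38 there and of 0.11 in spretus, where the change was positive for 69.7% of them, against 47.4% of all genes. The 344 picked in spretus had a median of 0.38 there and of 0.19 in musculus, with a positive change for 82.8%, against 53.6% of all genes. Each list was cut at 0.3 in the species where it was picked, so a lower median in the other species can arise from the choice alone. Over the whole table, the limma contrast of the spretus rise minus the musculus rise called 5 of 12346 genes (0.0405%). Its calls within each list are not given here, and the rise in the picking species entered the choice of that list. Whether the median change of either list differs between the species beyond the effect of this choice was not tested.

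The limma test in the other species gave the same order. Of the 482 genes picked in musculus, 59 (12.2%) were called higher and 1 (0.207%) lower at day 56 than at day 14 in spretus. There 3.98% of all genes were called higher and 4.16% lower. Of the 344 picked in spretus, 60 (17.4%) were called higher and 1 (0.291%) lower in musculus, where 5.08% of all genes were called higher and 6.82% lower. The first count was 37 once replicate 3 of the spretus pups was left out and 39 once replicate 1 of the spretus adults was, and the second was 36 in a fit of its own 6 arrays. The shares of all genes called higher in these fits were 2.47%, 2.68% and 2.51%. In a fit of its own 6 arrays the first count was 49, where 2.66% of all genes were called higher. Among genes with no masked probe, tested alone, 5 of 160 and 6 of 65 were called, where the shares of all such genes were 0.807% and 1.33%.

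Most genes of the musculus list that failed in spretus failed on the late rise. There the rise was under 0.3 for 368 of the 482 genes, and the earlier step was 0.3 or more in size for 122. Of the 344 genes of the spretus list, 237 had a late rise under 0.3 in musculus and 108 an earlier step of 0.3 or more. Some genes failed on both.

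The edge of the set was gradual. The 3 genes just inside the limit for the rise had a lower rise, of the 2 species, of 0.301, 0.302 and 0.303, and the 3 just outside had 0.299, 0.298 and 0.297. For the earlier step, the 3 genes just inside had a larger step of 0.299, 0.298 and 0.297 in size, and the 3 just outside 0.301, 0.302 and 0.303. One of those just outside had a late change of 1.41 in musculus, above any of the 77, and was left out because its musculus level lay just past the limit below its day 0 level at day 14. When the rule was applied without 1 array at a time, it found 69 to 85 genes, of which 59 to 72 were among the 77. The largest losses from the 77 came without musculus day 14 replicate 1 or spretus day 14 replicate 3. Leaving out either array lost 18 genes and kept 59.

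A core of 9 genes met the rule in all 18 of these repeats. Their mean rises ran from 0.40 to 0.62, and the smaller of the rises in the 2 species was at least 0.36 in each. Their mean levels ran from 5.63 to 10.87, so none was from the dimmest 25%. The gene with the largest rise was not among them, since it met the rule in 14 of the 18 repeats.

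The level of a gene averaged over the 3 ages played no part in the rule, and it was used to compare the species. On that average 26 of the 77 late-rising genes were called between the species, 15 higher and 11 lower in spretus (limma, adjusted p under 0.05), and 29.5% of all genes on the table were called. With 33.8% called, the set was close to the table. The differences were modest, from -0.47 to 0.44 on the log2 scale, with a median size of 0.15, against 0.11 over all genes. Of the 20 genes with the largest rise, 10 were called.

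At single ages the counts were smaller. The means at single ages entered the rule through the age changes, so these calls are a description of the chosen genes. At day 0, 11 of the 77 genes were called between the species, 6 higher and 5 lower in spretus, where 14.3% of all genes were called. In pups 7 were called, 5 higher and 2 lower (3 and 2 after quantile normalization), against 13.1% of all genes. In adults 12 were called, 6 higher and 6 lower, against 14.3% of all genes. One gene was called at all 3 ages, 6 at 2 ages and 15 at 1 age, and no gene was called in opposite directions. The day 0 count lay between 4 and 11 and the day 14 count between 1 and 9 when 1 array was left out, so these counts depend on single arrays. At day 0, leaving out either replicate 2 or replicate 3 of musculus gave 6 calls, and leaving out a spretus array gave 6 (replicate 1), 4 (replicate 2) or 5 (replicate 3). The share of all genes called also fell in these fits, to between 9.94% and 11.1%. At day 14, leaving out a musculus array gave 1 (replicate 2) or 4 (replicate 3), and leaving out a spretus array gave 2 (replicates 1 and 2 alike) or 4 (replicate 3). In these day 14 fits the share of all genes called fell to between 8.52% and 10.5%. The balance in pups also turned, to 2 higher and 4 lower without musculus replicate 1 and to 0 higher and 2 lower without spretus replicate 1.

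ENSMUSG00000019853 was the gene with the largest excess in spretus. Its musculus arrays read 6.95, 6.28 and 6.72 in neonates, 6.96, 6.86 and 6.57 in pups, and 7.61, 7.33 and 7.42 in adults. Its spretus arrays read 7.06, 7.31 and 7.42 in neonates, 7.44, 7.14 and 6.98 in pups, and 7.85, 7.75 and 7.70 in adults. The spretus arrays lay above the musculus arrays at every age, and the mean difference was 0.44 ± 0.09 (SE; limma, adjusted p = 0.0013). At single ages limma called the gene at day 0 (adjusted p = 0.0134) but not at day 14 (0.112) or day 56 (0.211). It was one of the core of 9 genes.

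ENSMUSG00000050732 was higher in spretus by 0.43 ± 0.07 (limma, adjusted p = 0.000129). Its musculus arrays read 6.91, 6.49 and 6.86 in neonates, 7.17, 6.71 and 7.13 in pups, and 7.64, 7.66 and 7.64 in adults. Its spretus arrays read 7.22, 7.34 and 7.45 in neonates, 7.45, 7.44 and 7.42 in pups, and 8.02, 7.83 and 7.93 in adults. The groups did not overlap at any age, and the gap between the species was widest at day 0, at 0.58, and narrowest at day 56, at 0.28. At single ages limma called the gene at days 0 and 14 but not at day 56 (adjusted p = 0.133).

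ENSMUSG00000031755 showed the largest deficit in spretus, with a mean difference of -0.47 ± 0.06 (limma, adjusted p = 6.91e-06). Its musculus arrays read 8.13, 8.02 and 8.15 in neonates, 7.84, 8.15 and 8.20 in pups, and 8.33, 8.38 and 8.51 in adults. Its spretus arrays read 7.55, 7.38 and 7.52 in neonates, 7.69, 7.69 and 7.59 in pups, and 7.93, 8.16 and 7.93 in adults. The rise after day 14 was nearly the same, 0.34 in musculus and 0.35 in spretus, from different starting levels. This was the gene called at all 3 ages, with differences of -0.62, -0.41 and -0.40.

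ENSMUSG00000020120 was lower in spretus by a mean difference of -0.43 ± 0.07 (limma, adjusted p = 0.000292). Its musculus arrays read 6.27, 5.91 and 6.08 in neonates, 5.96, 6.10 and 6.17 in pups, and 6.61, 6.40 and 6.34 in adults. Its spretus arrays read 6.07, 5.67 and 5.78 in neonates, 5.77, 5.32 and 5.67 in pups, and 5.99, 5.91 and 5.83 in adults. The species overlapped at day 0 and did not at days 14 and 56. In spretus its day 56 arrays lay within the range of its day 0 arrays. The authors had masked 6 of its probes, against a median of 2 over all genes.

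**Figure D4:**
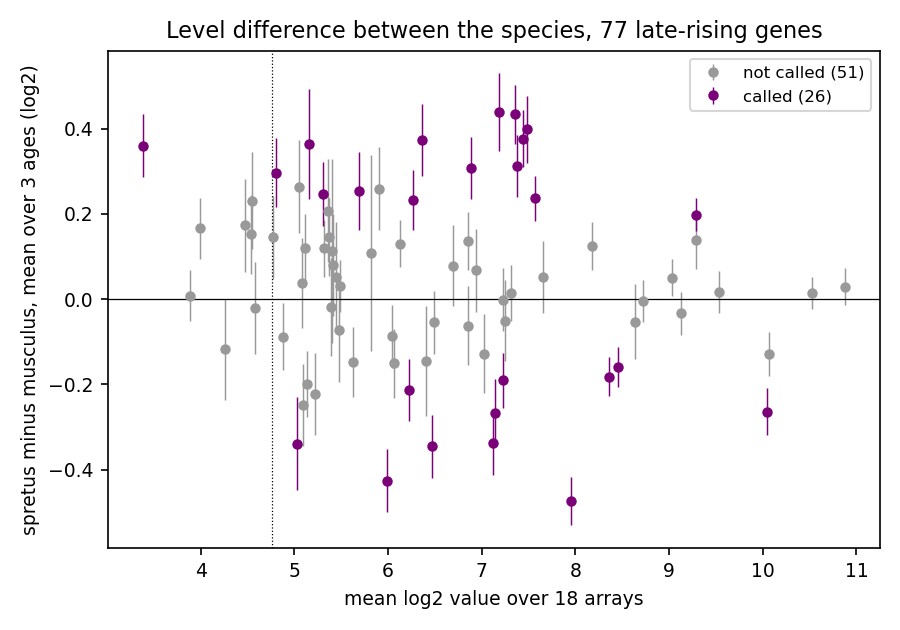
Spretus minus musculus averaged over the 3 ages (vertical axis, log2, bars are ± 1 SE from limma) against the mean log2 value over 18 arrays (horizontal axis) for the 77 late-rising genes. Purple marks the 26 genes called at an adjusted p under 0.05, which lie on both sides of 0, and the dotted line marks 4.76, which bounds the dimmest 25% of the table.

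Over the whole table, species calls were rarer among genes with no masked probe, so the masks of the set are given beside them. Of the 77 genes 17 (22.1%) had no masked probe, against 26.1% of all genes, and 1 gene (1.30%) had 7 or more, against 12.2%. Among the 17 genes with no masked probe, tested with the other genes of that kind alone, 2 were called between the species on average over the ages, where 8.35% of all such genes were, against the 29.5% given above. The part of the masks in the differences was not tested.

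Genes with the mirror course, flat to day 14 and at least 0.3 lower at day 56 in both species, numbered 90. They were brighter, with a median level of 7.75 and the lower and upper quartiles at 6.74 and 8.87, against 6.27, 5.30 and 7.37 for the late-rising genes. The spread within groups had a median SD of 0.14 in the falling genes and 0.18 in the rising genes. Between the species 27 of the 90 falling genes were called on average over the ages, or 30.0%, against 29.5% of all genes. Of the 90, 10 (11.1%) had 7 or more masked probes, against 12.2% of all genes. These are descriptions of 2 chosen sets and were not tested against each other.

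The late-rising genes did not move as a block between animals of a group. After the group means were removed, the 2926 pairs of the 77 genes had a median correlation of 0.02 over the 18 arrays, with the lower and upper quartiles at -0.20 and 0.24, against 0.00, -0.21 and 0.22 for all pairs on the table. These points share arrays and their normalization, and 3 arrays a group leave 12 degrees of freedom. The median residual of the set was within 0.06 of 0 on every array.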

How the data were processed

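Biotin-labelled cRNA made from total brain RNA was hybridised to 1-colour Affymetrix arrays, per the labels' protocols. The authors deposited 1 log2 value per Ensembl gene and array, already normalized between arrays (array medians 6.52 to 6.56). The log base was inferred from the range, 2.89 to 13.82. How background was corrected, probes were summarised and arrays were normalized is not given in the sources used here. A second deposited file lists masked probes by gene and array position and was used only to count them; the reason for the mask is not stated there.

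The values were used as deposited. The members and gene lists were chosen with earlier results of these data known. limma 3.58.1 in R 4.3.3 fitted 6 group means to all 18 arrays and 12346 genes (12 residual degrees of freedom, 17.1 after moderation; two-sided; Benjamini-Hochberg over all genes; called at an adjusted p under 0.05). The procedure was tested on simulated data. Counts read in the other species were added after the data were seen. With 0 IDs matched to a symbol, the 29 gene lists, the motif search and the parts of the naming rule that need symbols were not run, and the naming rule was shortened to 2 IDs per direction: those with the largest mean rise, and those called with the largest species difference over the ages. Other settings were tried: normalization, variance moderation, dim genes, masked probes, the replicate number as a block, single arrays left out and other limits of the rule. No batch could be examined.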

Additional observations from a re-analysis of the deposited data

How the results depend on the processing

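The rule found 77 genes, and 70 with group medians in place of means, of which 37 were among the 77. With 0.25 for both limits it found 101, of which 59 were shared, and with 0.35 it found 53, of which 43 were shared. Asking for a rise of 0.5 left 7. With 1 array left out it found 69 to 85, after quantile normalization 79 and with arrays centred on the median 77. Among genes with no masked probe alone there were 17 members. Called between the species were 2 on average over the ages, 0 at day 0, 0 at day 14 and 2 at day 56. The shares of all such genes called were 8.35%, 1.52%, 1.8% and 2.48%. The late calls in the other species were 5 and 6, where 0.807% and 1.33% of all such genes were called. These counts are over fewer genes, and the cause of the lower shares was not tested. With the arrays of the comparison alone, 2 genes were called at day 14, where 8.04% of all genes were. In such a fit 36 genes picked in spretus were called in musculus, where 2.51% of all genes were. The cause was not tested. With 1 array left out, the calls between the species ranged from 22 to 28 on average over the ages, 4 to 11 at day 0, 1 to 9 at day 14 and 8 to 13 at day 56, and the late calls in the other species from 37 to 64 and from 41 to 63. The 4 genes named for a species difference kept direction and call in all 24 settings each was tested in. The fit of genes with no masked probe was not among these settings. All 4 have masked probes: 3 for ENSMUSG00000019853, 3 for ENSMUSG00000050732, 2 for ENSMUSG00000031755 and 6 for ENSMUSG00000020120.

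The replicate numbers name different animals. Same-numbered arrays did not deviate together, with correlations from -0.16 to 0.15 (median 0.00) over 45 pairs. With the replicate block, 27 genes were called on average over the ages, 10 at day 0, 7 at day 14 and 12 at day 56. Signal near the floor of the table limits the dim genes, whose changes may be understated, and 3 arrays a group limit the precision of all values.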
